A study of Homo sapiens with 6 samples.

Results

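The genes described here are those of the cytosolic ribosomal proteins, the proteins that, with rRNA, make up the ribosomes outside mitochondria. They were taken by symbol, as names that begin with RPL or RPS followed by a number, or RPLP or RPSA, without pseudogenes and without the RPS6K kinases. The array named 52 of them among 14884 genes: 17 of the small (40S) subunit, 28 of the large (60S) subunit and 7 paralogues (RPL3L, RPL7L1, RPL10L, RPL22L1, RPL26L1, RPL39L and RPS27L). The rule used symbols only, but it was set with earlier results of these data known, so the list as a set was not tested. RPL3, RPL5, RPL7, RPL23, RPS10, RPSA and the stalk genes RPLP0, RPLP1 and RPLP2 had no probe set with that name here and were not analysed.

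The RNA came from 3 human multiple myeloma lines, RPMI8226, KMS11 and U266, each of them an established line grown from malignant plasma cells of 1 patient. Each line was transfected with 100 nM of a miR-10a mimic or 100 nM of a scrambled control, and total RNA was taken after 48 hours. There were 6 Affymetrix Human Gene 2.0 ST arrays, 1 for each line and treatment, each made from 100 ng of RNA. No genotype was altered, and the labels name no antibody, drug or other agent. The 2 arrays of a line therefore differed in treatment, and a line was compared with another over 1 control and 1 mimic culture; the p-values measure only the spread between these 6 samples.

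Ribosomal proteins are needed in near-equal numbers to build each particle, and their mRNAs are among the most abundant in growing cells. Many of these mRNAs start with a C followed by a run of pyrimidines, the terminal oligopyrimidine or TOP tract, through which mTOR signalling and LARP1 set how strongly they are translated. miR-10a has been reported to bind mRNAs of ribosomal proteins near their 5′ ends and to raise their translation, so the mimic arrays can be asked whether their RNA level moved as well; arrays measure RNA and say nothing about translation.

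The mature strand of miR-10a is shown because the mimic stands for it, with its seed (bases 2 to 8) in capitals. It is listed by RefSeq at chr17:48579904-48579926 on the minus strand of GRCh38.p14. The labels do not say which arm or which sequence the mimic had.
hsa-miR-10a-5p: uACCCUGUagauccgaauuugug

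The next sequences are the 15 bases before and the 15 bases from the annotated start of 8 genes on which the results below turn, from RefSeq's GRCh38.p14 table, with the terminal tract in capitals. RPL14, RPL32, RPS27L and RPS14 were low in KMS11, RPL41 and RPS27 were low in RPMI8226, and RPL29 and RPS26 had the lowest p-values for the mimic.
RPL14, chr3:40457324-40457353, plus strand: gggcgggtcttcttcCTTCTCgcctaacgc
RPL32, chr3:12841551-12841580, minus strand: gggttacgacccatcagcccttgcgcgcca
RPS27L, chr15:63157463-63157492, minus strand: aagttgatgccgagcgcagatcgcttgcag
RPS14, chr5:150449725-150449754, minus strand: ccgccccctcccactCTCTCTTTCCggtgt
RPL41, chr12:56116618-56116647, plus strand: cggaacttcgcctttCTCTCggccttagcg
RPS27, chr1:153990747-153990776, plus strand: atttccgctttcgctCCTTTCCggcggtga
RPL29, chr3:51995881-51995910, minus strand: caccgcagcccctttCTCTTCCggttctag
RPS26, chr12:56041903-56041932, plus strand: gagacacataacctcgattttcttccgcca

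A start sequence was at hand for 47 of the 52 genes (none for RPL3L, RPL8, RPL30, RPL39L and RPS15A). A tract, counted as a C at the start followed by at least 4 pyrimidines, was found in 31 of 47 (66.0%), against 1404 of the 27305 genes in the table (5.14%). Without the paralogues it was 30 of 42 (71.4%), and of 5 paralogues only RPL22L1 had one (20.0%). Tracts ran from 5 to 19 bases with a median of 8. RPL32, with 3 annotated starts, had none at any of them by this count, and RPS27L and RPS26 had none either. The count takes the annotated start as exact. In RPL10A and RPS26 a run of pyrimidines began a few bases after that start and was not counted. Genes without a counted tract may therefore still have one. In the 300 bases from 250 before to 50 after the start, read on both strands, CCGGAA, the core letters of ETS factor sites, occurred in 27 of 47 genes (57.4%) and in 20.1% of the table; its reverse complement can run out of the end of a tract, as in RPS27. The E-box letters CACGTG occurred in 4 of 47 (8.51%) and 8.77%, and TATAAA in 4 of 47 (8.51%) and 14.0%. The letters that pair with the miR-10a seed, ACAGGGT, read on the sense strand in the first 50 bases after the start, occurred in 0 of 47 genes and in 72 genes of the table (0.264%). At so low a share, 0 among 47 genes was the likely count, so it says little about these genes. Most of each transcript also lies outside that window.

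The median probe set of an array had a log2 value from 3.61 to 3.66. Of the 6 plasma cell marker genes with a name on the array, IRF4 lay between 10.26 and 10.89 on the 6 arrays and XBP1 between 9.34 and 9.65, but the other 4 were spread further between lines. CD38, a surface marker of plasma cells, was 9.99 and 9.90 on the RPMI8226 arrays, 4.89 and 4.92 on those of KMS11 and 4.11 and 3.80 on those of U266. SDC1, which encodes CD138, had line means of 7.23 (RPMI8226), 5.62 (KMS11) and 9.49 (U266), MZB1 of 10.00, 7.99 and 6.15, and SLAMF7 of 3.56, 3.37 and 7.48, the first 2 of these under the filter. Markers of B cells (2 genes), myeloid cells (3) and stromal cells (2) were all under the filter, between 1.98 and 4.24, and 1 of 2 T cell markers was above it. Levels are relative to the RNA put on an array, which was the same amount for each. A lower level can come from fewer transcripts per cell or from more of other RNA per cell, and these cannot be told apart. Probe sets of ribosomal protein genes can share sequence with processed pseudogenes; the probe sequences were not used here, so this was not tested, and levels are compared between lines for the same gene only.

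Most of the ribosomal protein genes were lowest in KMS11. Over all 52, the line mean was lowest in KMS11 for 31 (59.6%), where 30.0% of all named genes had their lowest mean in that line. The same held within the 3 control arrays (34 of 52, 65.4%, against 30.0% of named genes) and within the 3 mimic arrays (32 of 52, 61.5%, against 30.5%). Both KMS11 arrays lay below all 4 other arrays for 28 of 52 genes (53.8%; 15.4% of named genes), and both lay above them for 6 (11.5%; 20.3%). Among genes that passed the filter described below, the closer background, these counts were 28 of 48 (58.3%; 20.8%) and 5 (10.4%; 27.3%). The line mean was highest in RPMI8226 for 25 (48.1%; 36.1% of named genes), in U266 for 20 (38.5%; 30.5%) and in KMS11 for 7 (13.5%; 33.4%). The median difference was 0.29 log2 for RPMI8226 minus KMS11 and −0.30 for KMS11 minus U266, where the medians over all named genes were 0.0029 and 0.03. RPMI8226 minus U266 had a median of 0.01 over the 52 genes and 0.03 over all named genes.

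**Figure D1:**
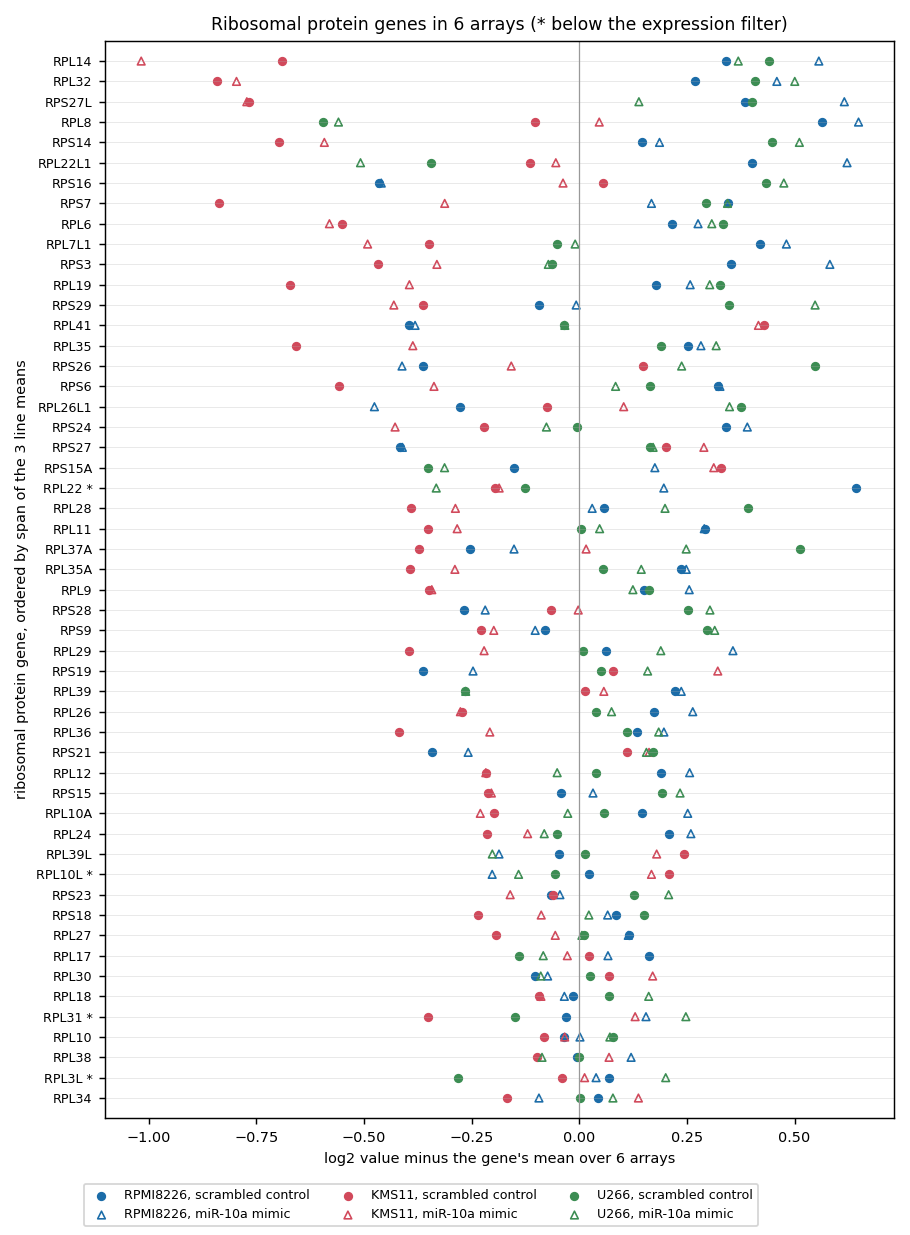
Log2 value minus the gene's own mean over the 6 arrays (x axis) for each ribosomal protein gene (y axis, ordered by the span between lines), coloured by cell line, with filled circles for control and open triangles for mimic; an asterisk marks the 4 genes below the filter. The KMS11 points lie lowest for 31 of the 52 genes, and the 2 points of a line lie close together, with a median gap of 0.08.

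Tests were made for 48 of the 52 genes, those whose mean over the arrays reached 4.70, the median of named genes. RPL22, RPL31, RPL3L and RPL10L were below it. By limma's F test over the lines, adjusted by Benjamini-Hochberg over 7442 genes, 40 of the 48 (83.3%) differed at 0.05, and so did 82.4% of all genes tested, so a difference between lines of some size was as common among these genes as elsewhere. Wide differences were fewer: 5 of 48 (10.4%) were called with at least 1 log2 between the highest and the lowest line, against 36.4% of genes tested. The median span between lines was 0.58 over the 48 and 0.77 over all genes tested, but 0.57 over the 52 and 0.46 over all named genes, so it lay below or above the background with the set compared. The span was larger than the widest gap between a gene's 2 same-line arrays in 48 of 52 (92.3%; 69.3% of named genes). The exceptions were RPL31, RPL34, RPL38 and RPL3L. These 2 shares are not like for like, because the named genes include all those under the filter and most of the 52 passed it. The share over the genes tested alone was not counted.

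The direction of the differences was uneven. KMS11 was called lower than both other lines for 20 of 48 genes (41.7%), against 14.4% of genes tested, and higher than both for 3 (6.25%), against 19.2%. The count of 20 fell to 13 without the mimic array of KMS11 and lay between 13 and 18 over the 6 fits that each left out 1 array. RPMI8226 was higher than KMS11 for 26 genes (54.2%; background 29.4%) and lower for 9 (18.8%; 35.6%). KMS11 was lower than U266 for 28 (58.3%; 29.8%) and higher for 6 (12.5%; 34.0%), which became 3 without either KMS11 array or without the mimic array of U266. Between RPMI8226 and U266 the calls were fewer, 9 higher (18.8%; 32.4%) and 13 lower in RPMI8226 (27.1%; 35.1%), and the 9 became 5 without the mimic array of RPMI8226. Data were also simulated with the same layout of arrays and 7442 genes, but with lines that were equal for all except a few genes. There, 52.2% of 1.5-fold and 92.5% of 2-fold changes in RPMI8226 minus KMS11 were called, and 43.3% of 1.5-fold changes of KMS11 by the F test. In the real data 82.4% of genes tested differed between lines, which makes the adjusted threshold easier to pass. The simulated shares therefore do not give the share of line differences missed here. RPMI8226 was called below both other lines for 7 genes (14.6%; 21.7%) and above both for 7 (14.6%; 17.6%), and U266 below both for 4 (8.33%; 18.9%) and above both for 9 (18.8%; 18.6%).

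**Figure D2:**
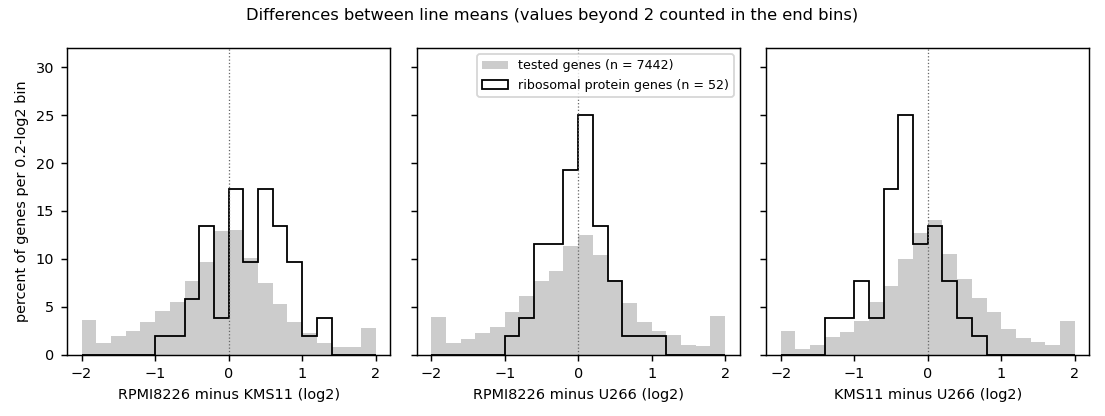
Percent of genes in each 0.2-log2 bin of the difference between line means, for the 52 ribosomal protein genes (black outline) and the 7442 genes tested (grey), with 1 panel for each pair of lines. The outline leans above 0 for RPMI8226 minus KMS11 (median 0.29), lies around 0 for RPMI8226 minus U266 (0.01) and leans below 0 for KMS11 minus U266 (−0.30).

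The genes with the widest differences were led by RPL14, RPL32, RPS27L, RPL8 and RPS14. RPL14 and RPL32 are large-subunit proteins. RPL14 was 5.79 (control) and 6.004 (mimic) in RPMI8226, 4.76 and 4.43 in KMS11, and 5.89 and 5.82 in U266. Both KMS11 values lay below the 4 others, by 1.302 log2 against RPMI8226 (2.47-fold, SE 0.14, limma adjusted p = 0.0004) and by 1.26 against U266 (2.39-fold, adjusted p = 0.0005). RPL32 was 5.32 and 5.51 in RPMI8226, 4.21 and 4.26 in KMS11, and 5.46 and 5.55 in U266. Its KMS11 values were again apart, 2.27-fold below RPMI8226 (limma adjusted p = 9.03e-05) and 2.42-fold below U266 (adjusted p = 7.45e-05). The KMS11 means of RPL14, RPL32 and RPS7 were themselves under the filter level, where array signal is known to be compressed.

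RPS27L, a paralogue of the small-subunit gene RPS27 that p53 is known to activate, was 6.44 and 6.67 in RPMI8226, 5.28 and 5.28 in KMS11, and 6.45 and 6.19 in U266. The KMS11 arrays lay lowest, by 1.27 log2 against RPMI8226 (2.41-fold, limma adjusted p = 0.000348) and 1.04 against U266 (adjusted p = 0.000849). RPS14, a small-subunit protein whose gene lies in the region lost in 5q- syndrome, was 5.62 and 5.66 in RPMI8226, 4.77 and 4.88 in KMS11, and 5.92 and 5.98 in U266. KMS11 was 1.75-fold below RPMI8226 (limma adjusted p = 0.000297) and 2.18-fold below U266 (adjusted p = 9.54e-05). RPS7, of the small subunit, was 5.49 and 5.31 in RPMI8226, 4.31 and 4.83 in KMS11, and 5.44 and 5.49 in U266, so its KMS11 arrays, 0.52 apart, had the widest gap of any ribosomal protein gene within a line. They still lay below the 4 others, by 0.83 log2 against RPMI8226 (SE 0.17, limma adjusted p = 0.00598) and 0.89 against U266 (adjusted p = 0.00454). Without the control array of KMS11 the first was 0.54, still called, and without the control array of RPMI8226 it was 0.60 (limma adjusted p = 0.0481). RPL6, of the large subunit, was 6.23 and 6.29 in RPMI8226, 5.46 and 5.44 in KMS11, and 6.35 and 6.32 in U266, lowest in KMS11 by 0.81 log2 (limma adjusted p = 0.000321) and 0.89 (adjusted p = 0.000252).

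RPL8, a large-subunit protein next to the peptidyl transferase centre, followed another order. It was 8.85 and 8.94 in RPMI8226, 8.19 and 8.34 in KMS11, and 7.70 and 7.73 in U266. All 3 lines were apart, RPMI8226 above KMS11 by 0.63 log2 (1.55-fold, limma adjusted p = 0.000904) and KMS11 above U266 by 0.55 (1.46-fold, adjusted p = 0.00176).

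**Figure D3:**
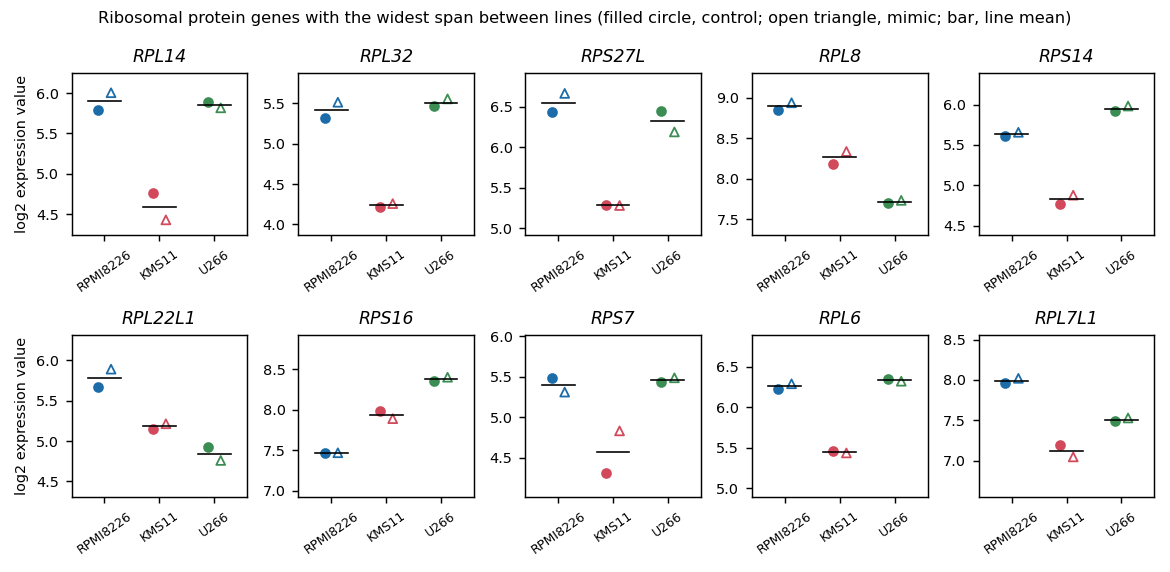
Log2 values of the 10 ribosomal protein genes with the widest span between lines, 1 panel per gene; filled circles are control, open triangles mimic and bars the line mean, and every panel spans 2 log2 units. RPL14, RPL32, RPS27L, RPS14, RPS7 and RPL6 are lowest in KMS11, while RPL8 is lowest in U266 and RPS16 in RPMI8226.

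Some small-subunit genes were lowest in RPMI8226. RPS16, which reaches the decoding centre, was 7.46 and 7.47 in RPMI8226, 7.98 and 7.89 in KMS11, and 8.36 and 8.40 in U266. RPMI8226 was below KMS11 by 0.47 log2 (limma adjusted p = 0.00341) and below U266 by 0.92 (1.89-fold, adjusted p = 0.000206). RPS27 was 11.72 and 11.73 in RPMI8226, 12.34 and 12.43 in KMS11, and 12.30 and 12.31 in U266. Its RPMI8226 arrays lay lowest, 1.58-fold below KMS11 (limma adjusted p = 0.000738), and its KMS11 minus U266 difference of 0.08 was not called (adjusted p = 0.442), though after quantile normalization it was 0.29 and called (adjusted p = 0.0219). RPS19, the gene most often mutated in Diamond-Blackfan anaemia, was 9.98 and 10.09 in RPMI8226, 10.42 and 10.66 in KMS11, and 10.39 and 10.50 in U266, with RPMI8226 lower by 0.51 log2 (limma adjusted p = 0.00267) and 0.41 (adjusted p = 0.00594). RPL41, which codes for one of the shortest proteins of the ribosome, was singled out after its values were seen. It was 11.65 and 11.66 in RPMI8226, 12.47 and 12.46 in KMS11 and 12.01 and 12.01 in U266, highest in KMS11, which was 1.75-fold above RPMI8226 (limma adjusted p = 0.000282) and 0.46 log2 above U266 (adjusted p = 0.00308). All 5 probe sets of RPL41 were highest in KMS11, with spans from 0.53 to 0.81.

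The calls were counted by subunit, and no difference between the subunits was tested. Of the 17 small-subunit genes, all tested, 6 were called lowest in KMS11 (background 14.4%), 5 lowest in RPMI8226 (21.7%), 2 highest in RPMI8226 (17.6%) and 7 highest in U266 (18.6%). Of the 26 large-subunit genes tested, 12 were called lowest in KMS11, 1 lowest in RPMI8226, 3 highest in RPMI8226 and 1 highest in U266, against the same backgrounds. The median of RPMI8226 minus KMS11 was 0.12 for the small and 0.43 for the large subunit, that of RPMI8226 minus U266 was −0.31 and 0.05, and that of KMS11 minus U266 was −0.33 and −0.22. For the 7 paralogues the same medians were 0.07, 0.09 and 0.03. The 31 genes with a terminal tract at the annotated start had a median RPMI8226 minus KMS11 of 0.38 and the 16 without had 0.38. Of these, 20 of 31 and 11 of 16 were lowest in KMS11. The split depends on the annotated starts, and no difference between its sides was tested.

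RPL22 and its paralogue RPL22L1 were both highest in RPMI8226, while other pairs had their lowest values in different lines. RPL22 was 5.10 and 4.65 in RPMI8226, 4.26 and 4.27 in KMS11, and 4.33 and 4.12 in U266, under the filter and so not tested. RPL22L1 was 5.67 and 5.89 in RPMI8226, 5.15 and 5.21 in KMS11, and 4.92 and 4.76 in U266, above the others in RPMI8226, by 0.60 log2 against KMS11 (limma adjusted p = 0.00443) and 0.94 against U266 (adjusted p = 0.000624). RPL26 was 7.95 and 8.04 in RPMI8226, 7.50 and 7.50 in KMS11, and 7.81 and 7.85 in U266, lowest in KMS11, by 0.49 log2 against RPMI8226 (limma adjusted p = 0.00245). RPL26L1 was 5.17 and 4.97 in RPMI8226, 5.37 and 5.55 in KMS11, and 5.82 and 5.80 in U266, lowest in RPMI8226, by 0.74 log2 against U266 (limma adjusted p = 0.00162). Each of these pairs' KMS11 minus U266 calls was lost when 1 array was left out: RPL22L1 was 0.34 (adjusted p = 0.0373) and 0.19 without the mimic array of U266 (0.264), RPL26 was −0.33 (0.0126) and −0.30 without the mimic array of KMS11 (0.0931), and RPL26L1 was −0.35 (0.0336) and −0.20 without the control array of KMS11 (0.247), all limma adjusted p. RPL39 had its highest values in RPMI8226 and its lowest in U266, at 9.44 and 9.46, 9.23 and 9.28, and 8.95 and 8.95, with RPMI8226 above U266 by 0.49 log2 (limma adjusted p = 0.00211) and no call between RPMI8226 and KMS11 (0.19, adjusted p = 0.0707), which was called when only the upper 25% of genes were tested (adjusted p = 0.0267). RPL39L, a paralogue known from testis, was instead highest in KMS11, at 7.02 and 6.96, against 6.73 and 6.59 in RPMI8226 and 6.79 and 6.58 in U266. Its RPMI8226 minus KMS11 difference of −0.33 log2 (limma adjusted p = 0.0149) was no longer called without the mimic array of KMS11 (adjusted p = 0.116), nor was KMS11 minus U266 (0.31 with all arrays, 0.25 without it, adjusted p = 0.145). RPL7L1, a paralogue of RPL7, was 7.96 and 8.02 in RPMI8226, 7.19 and 7.05 in KMS11, and 7.49 and 7.53 in U266. It was lowest in KMS11, by 0.87 log2 against RPMI8226 (limma adjusted p = 0.000385) and by 0.39 against U266 (adjusted p = 0.0107, and 0.0954 without the mimic array of KMS11).

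Of the 9 genes picked for known roles in ribosome disorders, p53 control or signalling, 6 were called lowest in KMS11, against 14.4% of genes tested and 41.7% of the 48. RPL11, which with RPL5 and 5S rRNA binds MDM2, was 10.68 and 10.68 in RPMI8226, 10.04 and 10.11 in KMS11, and 10.39 and 10.44 in U266. The order was RPMI8226, U266, KMS11, with RPMI8226 above KMS11 by 0.61 log2 (limma adjusted p = 0.000954) and above U266 by 0.27 (adjusted p = 0.0256). RPL11 lost the call against U266 in 5 of 12 alternatives, with no filter among them (limma adjusted p = 0.0779), at differences from 0.24 to 0.29 over the 12. Its KMS11 minus U266 difference of −0.34 (limma adjusted p = 0.0104) was no longer called without any 1 of the 4 arrays of those lines, with an adjusted p from 0.0503 to 0.0765. RPL35A, a Diamond-Blackfan gene, was 7.97 and 7.98 in RPMI8226, 7.34 and 7.45 in KMS11, and 7.79 and 7.88 in U266, lowest in KMS11 by 0.58 log2 (limma adjusted p = 0.00122) and 0.44 (adjusted p = 0.00408). RPS6, the substrate of the S6 kinases, was 8.02 and 8.03 in RPMI8226, 7.14 and 7.36 in KMS11, and 7.86 and 7.78 in U266, lowest in KMS11 by 0.77 log2 (limma adjusted p = 0.000977) and 0.57 (adjusted p = 0.00355). RPS24, another Diamond-Blackfan gene, was 6.30 and 6.35 in RPMI8226, 5.74 and 5.53 in KMS11, and 5.96 and 5.89 in U266, with RPMI8226 above KMS11 by 0.69 log2 (limma adjusted p = 0.00116). Its KMS11 minus U266 difference of −0.28 (limma adjusted p = 0.0397) was −0.25 with each array centred on its median (0.0594) and −0.19 without the mimic array of KMS11 (0.274).

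At the other end, 8 of the 48 genes tested were not called between lines: RPL10, RPL17, RPL18, RPL27, RPL30, RPL34, RPL38 and RPS18. A second probe set of RPS18 spanned 0.61, against 0.25 for the one used. RPL10, a large-subunit protein altered in some T-cell leukaemias, was 12.07 and 12.10 in RPMI8226, 12.02 and 12.07 in KMS11, and 12.18 and 12.17 in U266, a span of 0.13 (limma adjusted p = 0.318). With an intensity trend, its KMS11 minus U266 (−0.13, limma adjusted p = 0.00521) and RPMI8226 minus U266 differences (−0.09, adjusted p = 0.0325) were called. RPL34 was 7.05 and 6.92, 6.84 and 7.15, and 7.01 and 7.09 in the same order, so that the gap within KMS11 was wider than the span between lines of 0.06 (limma adjusted p = 0.859). RPL38 was 5.79 and 5.92, 5.70 and 5.87, and 5.80 and 5.71, a span of 0.10 (limma adjusted p = 0.599). RPL31, at 3.51 and 3.70, 3.19 and 3.67, and 3.39 and 3.79, and RPL3L, a paralogue known from striated muscle, at 4.54 and 4.51, 4.44 and 4.49, and 4.19 and 4.68, had narrow spans too but lay under the filter. The 12 genes with a mean of at least 9 had smaller medians (0.20 for RPMI8226 minus KMS11 and −0.17 for KMS11 minus U266) than the 40 others (0.39 and −0.33), and array signal is known to flatten at high levels; the part of that in these medians was not tested. Where RPL19, RPL39 and RPS18 had 2 probe sets each, both were lowest in the same line.

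Other genes of the same machinery were read from lists. Of 38 ribosome assembly factors tested, 25 were higher in RPMI8226 than in KMS11 (background 29.4%) and 2 lower (35.6%). KMS11 was lower than U266 for 22 (29.8%) and higher for 5 (34.0%), and 17 were below both other lines in KMS11 (14.4%) against 1 above (19.2%). As many, 17, were above both other lines in RPMI8226 (17.6%), and 10 were above both in U266 (18.6%). Their median was 0.67 log2 for RPMI8226 minus KMS11 and −0.36 for KMS11 minus U266. NOP16, a nucleolar protein of 60S assembly, was 6.40 and 6.40 in RPMI8226, 5.36 and 5.44 in KMS11, and 7.06 and 7.14 in U266, lowest in KMS11 (limma F test adjusted p = 3.12e-05). RIOK1, a kinase of late 40S assembly, was highest in RPMI8226 at 8.45 and 8.57, against 7.16 and 7.01 in KMS11 and 6.44 and 6.60 in U266. Of 13 translation factors tested, 11 were called between lines (background 82.4%), with 2 below both other lines in KMS11 (14.4%) and 1 above (19.2%), all near or under the background. In pairs of lines, RPMI8226 was higher than KMS11 for 7 of the 13 (29.4%) and lower for 2 (35.6%). KMS11 was lower than U266 for 4 (29.8%) and higher for 4 (34.0%). The line mean was lowest in KMS11 for 8 of the 13, with medians of 0.23 log2 for RPMI8226 minus KMS11 and −0.04 for KMS11 minus U266. RPMI8226 was above both other lines for 4 (17.6%) and below both for 1 (21.7%). U266 was above both for 3 (18.6%) and below both for 3 (18.9%). EIF5, which stimulates GTP hydrolysis at start codon choice, was 9.14 and 9.14 in U266 against 6.70 and 6.80 in RPMI8226 and 6.69 and 6.65 in KMS11. Of the genes of RNA polymerase I, which makes rRNA, 3 were tested and 3 called between lines, and of regulators of ribosomal protein mRNA 5 of 5, against the same 82.4%. The mimic called 0 genes of these lists. FAU and RPL36AL, ribosomal protein genes that the symbol rule leaves out, were both called lowest in KMS11, FAU at 6.30 and 6.26 there against 7.08 and 7.04 in RPMI8226 and 6.75 and 6.56 in U266. MYC, a known activator of ribosomal protein genes, was 10.83 and 10.75 in RPMI8226, 9.14 and 9.25 in KMS11, and 4.92 and 4.43 in U266, highest in RPMI8226 and lowest in U266.

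The mimic changed no ribosomal protein gene beyond the threshold. With the cell line as a block, limma called 0 of 48 genes higher and 0 lower at an adjusted p of 0.05, and 0% of the 7442 genes tested (0 in each direction); at an unadjusted p under 0.05 there were 183 higher (2.46%) and 220 lower (2.96%), of which 1 each were ribosomal protein genes. The smallest adjusted p among the 48 was 0.889. The 95% interval of the mimic change lay within 1.5-fold either way for 48 of 48 and within 1.2-fold for 30. In simulated data with the same design, in which other genes changed with the mimic as well, 80.6% of 1.5-fold mimic changes were called, over 7442 genes. In the real data 0 genes were called with the mimic, which makes the adjusted threshold harder to pass than in that simulation. The simulated share therefore does not give the share of mimic changes that would be found here.

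RPL29, a large-subunit protein that also binds heparin, was the gene with an unadjusted p under 0.05 among those higher with mimic. It was 6.71 with control and 7.01 with mimic in RPMI8226, 6.26 and 6.43 in KMS11, and 6.66 and 6.84 in U266, higher in 3 of 3 lines by 0.22 ± 0.07 (SD, n = 3 lines; 95% interval 0.05 to 0.38; limma adjusted p = 0.889). RPS26, a small-subunit protein mutated in some Diamond-Blackfan families, was 5.59 and 5.54 in RPMI8226, 6.10 and 5.79 in KMS11, and 6.50 and 6.19 in U266, lower in 3 of 3 lines, with a mean of −0.22 ± 0.15 (SD, n = 3 lines; limma adjusted p = 0.901). Neither passed the correction. RPS19 and RPL35 came next by size among the tested genes that were higher in 3 of 3 lines. RPS19, at the levels given above, was higher by 0.16 ± 0.08 (SD, n = 3 lines; limma adjusted p = 0.911). RPL35, of the large subunit, was 7.47 and 7.50 in RPMI8226, 6.56 and 6.83 in KMS11, and 7.41 and 7.53 in U266, higher by 0.14 ± 0.12 (limma adjusted p = 0.917). RPL36 was higher by 0.12 ± 0.08 and RPL39L had a mean change of −0.14 ± 0.07 (n = 3 lines; limma adjusted p = 0.917 and 0.911). Of the genes under the filter, with no test, RPL31 had a mean change of 0.35 ± 0.15 and RPL10L, a testis paralogue, one of −0.12 ± 0.10.

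Over all 52 genes, the mean mimic change was positive for 37 (71.2%), against 51.8% of all named genes, and 13 (25%) were higher in all 3 lines, against 13.4%, with 3 (5.77%) lower in all 3, against 11.7%. The median change was 0.04 log2, and 0.0049 over all named genes. RPMI8226 and KMS11 had medians of 0.05 each and U266 one of 0.0016. In the same order of lines, 37 of 52 (71.2%; 52.1% of named genes), 35 (67.3%; 51.1%) and 27 (51.9%; 49.8%) had a higher value with mimic. Genes with a terminal tract at the annotated start had a median of 0.04 (24 of 31 positive) and those without 0.01 (9 of 16 positive). This difference was not tested, and some of those without may have a tract that the annotated start misses. A test of whether the change in 1 line stood apart from the other two called 0 genes in any line, with smallest adjusted p of 0.757 for RPMI8226, 1.0 for KMS11 and 0.747 for U266 among the 48; at an unadjusted p under 0.05 it gave 0 of the 48 in RPMI8226 (6.45% of genes tested), 1 in KMS11 (4.00%) and 1 in U266 (6.33%). That fit has 1 residual degree of freedom.

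**Figure D4:**
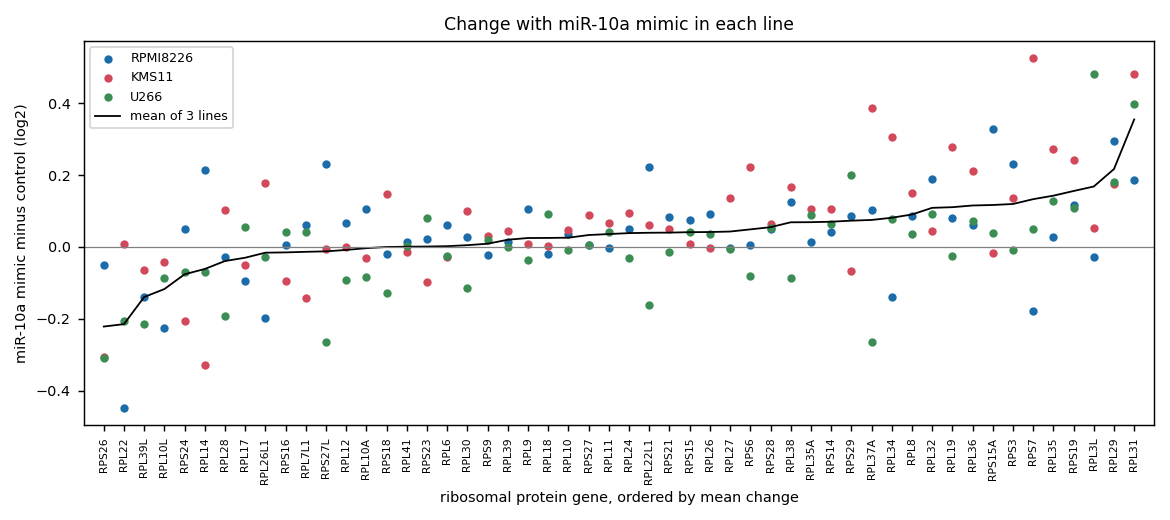
Mimic minus control (log2) on the y axis for each ribosomal protein gene on the x axis, ordered by mean change, with 1 point per cell line and a line for the mean of the 3 lines. Means run from −0.22 to 0.35 and 37 of 52 lie above 0, with none called.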

How the data were processed

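Per the submitters' processing notes, the authors worked with Affymetrix Expression Console 1.3.0. The deposited values are log2 signals of 53617 probe sets; how they were background-corrected and normalized is stated in none of the sources read. Depth does not apply to arrays, and their number, 6, limits the precision. A probe set was used where the platform annotation gave it 1 gene symbol (16098; 37519 had none), and of several for a gene the one with the highest mean was kept, leaving 14884 genes. Genes with a mean of at least 4.70, their median, were tested (7442).

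limma 3.58.1 (R 4.3.3) fitted cell line and mimic to the 6 arrays, with an F test over lines, pairwise line contrasts and the mimic contrast, adjusted by Benjamini-Hochberg at 0.05 over all genes tested. The fit had 2 residual degrees of freedom and was tested on simulated data. The line is the pairing: arrays of the same line deviated together from their treatment means (r = 0.97, 0.967 and 0.97).

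The genes and lists were chosen with earlier results of these data known. Genes given in full were the 10 with the widest span between lines, those of lowest span, those with the largest mimic changes the same way in all lines, and genes picked by role or as paralogue pairs. Sequences are from RefSeq (GRCh38.p14). One label spells RPMI8226 as RPI8226; it was taken as that line from the title.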

Additional observations from a re-analysis of the deposited data

How the results depend on the processing

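Alternatives were other scalings, filters, probe set rules and an intensity trend, and leaving out arrays or lines. The median KMS11 minus U266 was −0.24 after quantile normalization and −0.25 in the upper 25% of genes. That of RPMI8226 minus KMS11 was 0.25 with arrays centred on their medians, 0.24 in the upper 25% and 0.37 with probe sets averaged, and that of RPMI8226 minus U266, near 0 throughout, was −0.0059 centred, 0.041 after quantile normalization, 0.0178 in the upper 25% and 0.0131 with probe sets averaged. KMS11 was called above U266 for 3 genes with no filter (6 in the report), and below it for 18 of the 31 genes tested in the upper 25% (28 of 48).

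With 1 array left out, 35 to 39 genes were called between lines and 13 to 18 lowest in KMS11. RPMI8226 was above KMS11 for 22 to 25 and below for 6 to 9, above U266 for 5 to 9 and below for 10 to 12, and KMS11 was above U266 for 3 to 6 and below for 19 to 28. The medians ran from 0.25 to 0.33 (RPMI8226 minus KMS11), −0.32 to −0.30 (KMS11 minus U266) and −0.0306 to 0.0493 (RPMI8226 minus U266). With 1 line left out, the median mimic change was 0.02 to 0.05 and 19 to 24 genes were higher in both remaining lines. Fewer lines have to share a sign there, so these counts are larger by construction than the 13 for all 3 lines. The matching share of all named genes was not counted. The mimic called 0 genes under every alternative, including the fit without the cell line as replicate block (0).

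The KMS11 contrasts of RPL14, RPL32, RPS27L, RPS14, RPS7 and RPL6 kept their call in every alternative in which they were tested. Over the named genes' line contrasts, 753 of 831 alternative values kept direction and call, 55 lost a call, 6 gained one and 17 differences that had no call changed sign.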
